A study of Drosophila melanogaster with 14 samples.

Results

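Transcript levels of *Notch* (*N*), its ligands *Delta* (*Dl*) and *Serrate* (*Ser*), and the E(spl) bHLH genes *m8*, *m7*, *m5*, *m3*, *mβ*, *mγ* and *mδ* were followed in *sall* mutant embryos of *Drosophila melanogaster*. These 10 genes were taken by their identifiers from a table of 13781 genes, and all 10 passed the filter on low reads that left 11584 genes for testing. Their identifiers in the table are CG3936 for *N*, CG3619 for *Dl*, CG6127 for *Ser*, CG8365 for *m8*, CG8361 for *m7*, CG6096 for *m5*, CG8346 for *m3*, CG14548 for *mβ*, CG8333 for *mγ* and CG8328 for *mδ*. *N* lies on the X chromosome, and the other members lie on chromosome arm 3R, where the E(spl) bHLH genes are clustered in the E(spl) complex. In a Release 6 annotation no exon of a member overlaps an exon of another gene, and the reads of no member were identical to those of another gene across the libraries. The table itself was made on FlyBase r5.22, so no coordinates are given.

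Pools of 50 whole embryos gave the poly-A RNA for 14 mRNA-Seq libraries. Stage 16 and stage 17 were each represented by 2 libraries of wild type Oregon R embryos (WT), 2 of embryos heterozygous for *Df(2L)32FP-5* (He) and 3 of embryos homozygous for it (Ho). This small deficiency removes both *spalt* genes, *salm* and *salr*. Ho embryos came from a stock with a *CyO* balancer marked by GFP and were picked by the absence of GFP, and He embryos came from its females crossed to *white* males. Genotype and strain background can therefore not be told apart. The letters name experiments. Every condition has a library c, while experiments a and b stand as 1 library ab, made of technical replicates, in WT and He, and as 2 libraries in Ho. For every library the labels state an age of 13 to 14 hours, whereas 7 titles say stage 17, and the titles were used. The study's methods describe the pools of a condition as independent preparations, so the spread within a condition is that between pools of embryos.

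Notch is a transmembrane receptor that is cleaved when a ligand on a neighbouring cell binds it. Its intracellular domain then joins Su(H) and Mastermind in the nucleus and turns on target genes, first among them the E(spl) bHLH genes, whose products are repressors that act with Groucho. In the *Drosophila* embryo this pathway is best known for lateral inhibition, in which a cell with more Delta becomes a neuroblast or a sensory organ precursor and its neighbours are kept from that fate, and for the choice between sibling fates after neural divisions.

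Whole reads were recovered from the deposited log2-like values. The shallowest library was Ho16a with 4749205 reads on genes and the deepest WT17c with 23191715, around a median of 17967704.5. As a check of the labels, the reads of *salm* ran from 768 to 2651 over the WT and He libraries and from 0 to 96 over the Ho libraries. Libraries Ho16a and Ho16c stood apart, with a standard deviation around their condition mean of 0.98 and 1.25 on the log2 scale over all genes, against 0.37 to 0.67 in the other libraries. Ho16a had the lowest deposited value among stage 16 libraries for 8 of 8 neuron markers and 5 of 8 neuroblast markers. It also had the lowest for 3 of 5 glia, 3 of 5 muscle, 3 of 5 hemocyte and 2 of 5 epidermis markers, ties at 0 reads included. The libraries c and all 3 Ho17 libraries held few genes with low reads, between 187 and 649 genes with 1 to 9 reads, against 1666 to 2129 in the other libraries. Where no read was counted, up to 3 reads are still possible, or 0.632 CPM (reads on genes, scaled to 1000000 reads per library) in Ho16a and 0.129 CPM in WT17c, but this limit covers counting error only.

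Levels of different genes can be compared only per length, and they were therefore expressed as CPM per kilobase of exon (RPKM). At stage 16, *mβ* had the highest median RPKM over the 7 libraries, at 37.9, followed by *m3* at 21.8 and *m7* at 20.2. *N* followed at 15.3, and then *Dl* at 9.42, *mγ* at 8.43 and *Ser* at 7.88. The lowest medians were those of *m8* at 4.64, *m5* at 3.61 and *mδ* at 1.62. The receptor thus had a lower median level per length than the 3 most abundant of its target genes, though *m7* was above *N* in only 5 of 7 libraries. Neighbours in this order were mostly not separated: *m3* was above *m7* in 5 of 7 libraries, *Dl* was above *mγ* in 5 of 7 and *mγ* was above *Ser* in 3 of 7, whereas *N* was above *Dl* in 7 of 7 and *m5* above *mδ* in 7 of 7. At stage 17 *mβ* was still first with a median RPKM of 11.6, but *N* was second at 7.20, above *m3* at 5.57 in 5 of 7 libraries. *Ser* had moved up to the fourth place at 5.10, while *Dl*, at 3.15, was seventh and was above *Ser* in 1 of 7 libraries.

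Between stages 16 and 17 the fitted change was below 0 for all 10 genes, in WT, in He, in Ho and on average over them, where 48.5%, 49.5%, 45.8% and 49.7% of all tested genes were below 0. Averaged over the genotypes, *m3* and *m7* fell, 2 of 10 members at an adjusted p under 0.001 in limma, where 3.0% of all tested genes fell. The other 8 members did not reach this threshold. At an adjusted p under 0.05, *N*, *Dl* and *mβ* were added, 5 of 10 members against 12.5% of all genes. The median change was -1.32 on the log2 scale over the members and 0.01 over all tested genes. These embryos are bulk samples, and fewer cells of a type cannot be told apart from less RNA per cell.

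**Figure D1:**
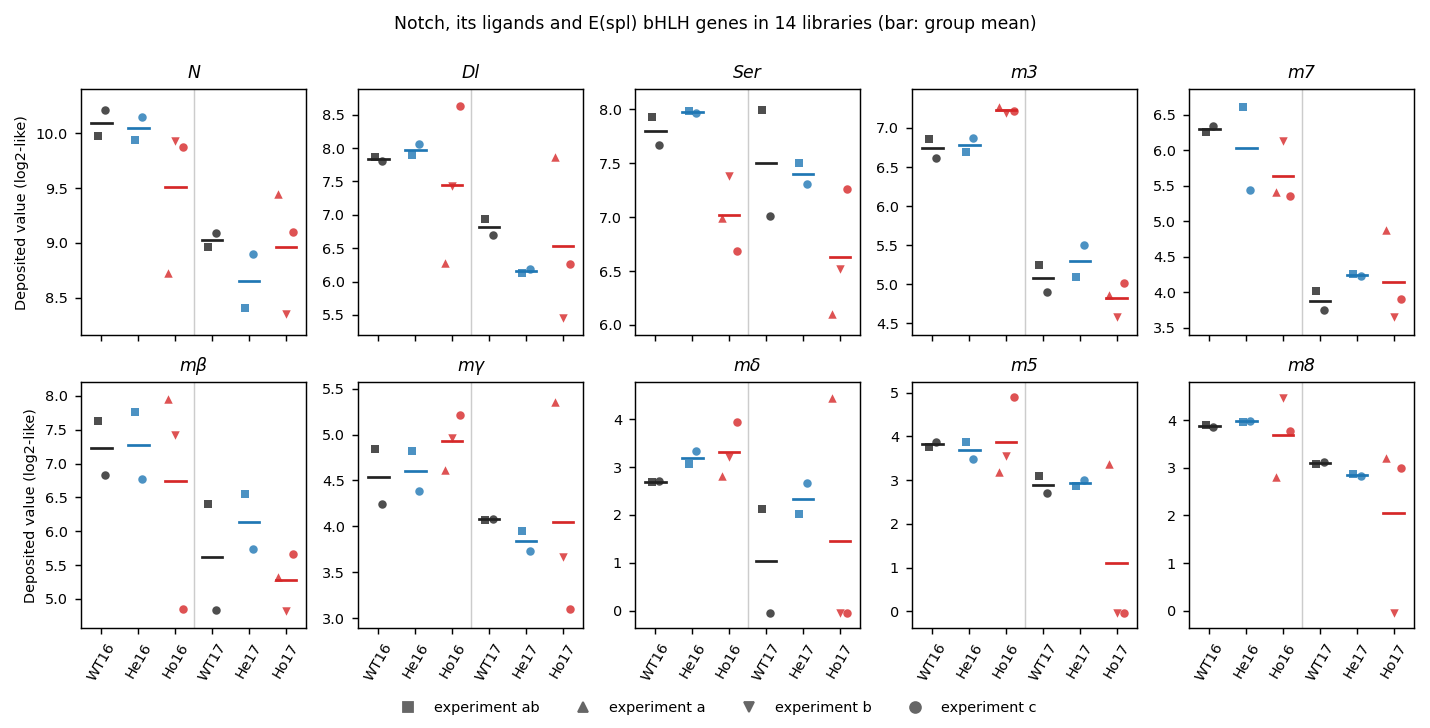
Deposited values (vertical axis, log2-like scale) of the 10 genes in each of the 14 libraries, by condition (horizontal axis), with a point for each library, its shape for the experiment and a bar for the group mean. The values of *m3* and *m7* at stage 17 all lie below those at stage 16, and Ho17a is the highest of the 3 Ho17 libraries for 7 of 10 genes.

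*N* was measured at 152 and 177 CPM in WT16, at 156 and 170 CPM in He16, and at 56.2, 161 and 138 CPM in Ho16a, Ho16b and Ho16c. At stage 17 it was at 70.0 and 84.1 CPM in WT, 57.3 and 73.1 CPM in He, and 99.9, 53.4 and 79.8 CPM in Ho. Only Ho16a, of the stage 16 libraries, lay within the stage 17 range. On the deposited scale the receptor transcript was thus about 2.00 times higher at stage 16 on average over the genotypes. The log2 change was -1.0 (its standard error 0.25, adjusted p = 0.00808 from limma), which missed the threshold of 0.001. Without Ho16a the change was -1.13 and passed it (adjusted p = 0.000637 from limma). The part of the low marker values of Ho16a, in neurons and other tissues, in this was not tested.

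*Dl*, the ligand of lateral inhibition, was at 49.7 CPM in both WT16 libraries, at 52.8 and 56.3 CPM in He16, and at 14.3, 42.4 and 71.6 CPM in Ho16a, Ho16b and Ho16c. At stage 17 it was at 23.4 and 22.9 CPM in WT, at 15.8 and 16.2 CPM in He, and at 43.3, 9.83 and 16.6 CPM in Ho17a, Ho17b and Ho17c. The stages did not overlap in WT or He, and did overlap in Ho, where the lowest and highest libraries differed by 2.35 on the log2 scale at stage 16 and by 2.41 at stage 17. The averaged log2 change was -1.25 (its standard error 0.41, adjusted p = 0.0308 from limma) and was not called. In He alone it was -1.81, with an adjusted p of 0.174 in limma and of 3.5e-05 in the exact negative binomial test on recovered reads, the only comparison in which *Dl* was called.

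*Ser*, the other Notch ligand, had the smallest fitted change. It was at 51.5 and 45.9 CPM in WT16, 55.4 and 53.7 CPM in He16, and 21.9, 41.4 and 24.6 CPM in Ho16. In the stage 17 libraries it was at 41.9 and 27.3 CPM in WT, 35.1 and 31.0 CPM in He, and 15.7, 19.3 and 29.7 CPM in Ho. Deposited values of WT16 and WT17 overlapped, with 7.99 in WT17ab above both WT16 libraries, and the averaged log2 change was -0.42 (its standard error 0.25, adjusted p = 0.229 from limma, 95% interval -0.97 to 0.13). The ratio of *Dl* to *Ser* per length was over 1 in 6 of 7 stage 16 libraries, with a median of 1.13, and in 1 of 7 stage 17 libraries, with a median of 0.616. The exceptions were Ho16a at 0.722 and Ho17a at 3.05. This shift between the ligands was not tested.

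Among the targets, *m3* had the smallest standard error and the lowest adjusted p. It was at 28.4 and 25.4 CPM in WT16, at 26.9 and 29.1 CPM in He16 and at 25.5, 37.2 and 33.4 CPM in Ho16. By stage 17 it was at 8.12 and 7.11 CPM in WT, at 7.95 and 10.4 CPM in He and at 6.84, 5.23 and 7.26 CPM in Ho. No stage 17 library overlapped a stage 16 library, as for 5.03% of all tested genes that were lower at stage 17. The averaged log2 change was -1.85 (its standard error 0.21, adjusted p = 1.8e-05 from limma), or 3.60 times higher at stage 16 on the deposited scale. This change stayed called under every alternative that was run for it. In Ho alone *m3* fell by 2.40 (adjusted p = 0.000125 from limma), the only member called within a genotype by limma, where 1.04% of all genes fell. This call was lost when only the Ho libraries were fitted (adjusted p = 0.00913) and without Ho17b (adjusted p = 0.00104).

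*m7* was at 19.9 and 21.6 CPM in WT16, at 25.8 and 12.01 CPM in He16, and at 8.21, 20.03 and 10.7 CPM in Ho16. At stage 17 it was at 3.13 and 2.76 CPM in WT, at 4.21 and 4.04 CPM in He, and at 6.89, 2.35 and 3.00 CPM in Ho. The stages again did not overlap, though Ho16a and Ho17a came close in CPM. *m7* fell by 1.90 on average over the genotypes (its standard error 0.31, adjusted p = 0.000311 from limma), which is 3.73 times higher at stage 16 on the deposited scale. This call was lost, with adjusted p-values of at most 0.00185, when any of WT16ab, WT16c, He16ab, WT17ab, WT17c, He17ab or He17c was left out. The exact negative binomial test called *m7* in WT (adjusted p = 1.4e-05) and in He (adjusted p = 0.000411), where limma gave adjusted p-values of 0.0114 and 0.0618.

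*mβ*, the most abundant target, was at 43.8 and 28.6 CPM in WT16, 49.4 and 27.5 CPM in He16, and 37.1, 42.2 and 7.40 CPM in Ho16a, Ho16b and Ho16c. At stage 17 it was at 17.1 and 6.77 CPM in WT, 20.3 and 12.1 CPM in He, and 9.47, 6.28 and 11.4 CPM in Ho. Library Ho16c lay inside the stage 17 range, and all other stage 16 libraries lay above it. The averaged log2 change of -1.40 (its standard error 0.48, adjusted p = 0.0373 from limma) was not called with all libraries, and without Ho16c it was -1.71 and was called (adjusted p = 0.000629 from limma). *mβ* also differed by letter. Library c was lower than library ab in 4 of 4 conditions of WT and He, by 1.05 on average on the log2 scale, as 16.5% of all genes were lower in all 4. *Ser* shared this order, with a mean difference of -0.36, whereas *N* was higher in library c in 4 of 4 conditions, by 0.27, as 12.9% of all genes were.

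*mγ*, a target that is expressed in neuroblasts, was at 7.68 and 4.94 CPM in WT16, at 7.95 and 5.50 CPM in He16 and at 4.63, 9.10 and 9.63 CPM in Ho16. In stage 17 libraries it was at 3.28 and 3.71 CPM in WT, at 3.23 and 2.62 CPM in He, and at 9.69, 2.41 and 1.37 CPM in Ho17a, Ho17b and Ho17c. Ho17a was thus higher than every stage 16 library in CPM, and the averaged log2 change was -0.70 (its standard error 0.36, adjusted p = 0.158 from limma). The neuroblast markers *dpn*, *ase*, *wor*, *mira*, *insc*, *pros*, *CycE* and *stg* summed to 583 to 613 CPM in WT16 and to 358 to 449 CPM in WT17, with 511 CPM in Ho17a against 420 and 387 CPM in Ho17b and Ho17c. Such a sum weighs the abundant genes most, and *dpn* and *ase* had medians of only 14.3 and 10.9 CPM over the stage 16 libraries. In Ho16 the sum ran from 317 to 614 CPM, so that its lowest library lay below WT17. Of these 8 markers 1 fell, *mira*, and none rose at an adjusted p under 0.001 in limma, while 3 fell and 1 rose at 0.05. Of 8 neuron markers none was called at 0.001, and at 0.05 5 rose and none fell. At the same threshold of 0.05, 3 of 5 glia markers fell and none rose, 4 of 5 muscle and 2 of 5 hemocyte markers rose and none fell, and of 4 tested epidermis markers 2 rose and 1 fell. Of all tested genes, 35.5% were called in either direction at 0.05 and 12.5% fell, against 15.1% and 3.0% at 0.001. The part of such shifts in the members' changes was not tested.

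The remaining 3 targets had the fewest reads. *m8*, whose product is best known from sensory organ development, had 46 and 80 reads in WT16, 58 and 86 in He16, and 4, 38 and 47 in Ho16, and then 17 and 34 reads in WT17, 19 and 23 in He17, and 30, 0 and 23 in Ho17. *m5* had 41 and 81 reads in WT16, 53 and 54 in He16, and 6, 17 and 117 in Ho16, and then 17 and 21 reads in WT17, 19 and 28 in He17, and 35, 0 and 0 in Ho17. *mδ*, known from the R4 photoreceptor of the eye, had 13 and 24 reads in WT16, 24 and 46 in He16, and 4, 12 and 54 in Ho16, and then 5 and 0 reads in WT17, 6 and 19 in He17, and 92, 0 and 0 in Ho17. The libraries without reads, WT17c, Ho17b and Ho17c, all belong to those with few low-read genes, and the part of this in the zeros was not tested. The averaged log2 changes were -1.18 for *m8*, -1.48 for *m5* and -1.45 for *mδ*, with adjusted p-values of 0.0962, 0.0536 and 0.130 from limma. For *m5* the log2 change in Ho was -2.78 (adjusted p = 0.0256 from limma). It depends on the value that the scale gives to 0 reads, since Ho17a was the only Ho17 library with reads.

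**Figure D2:**
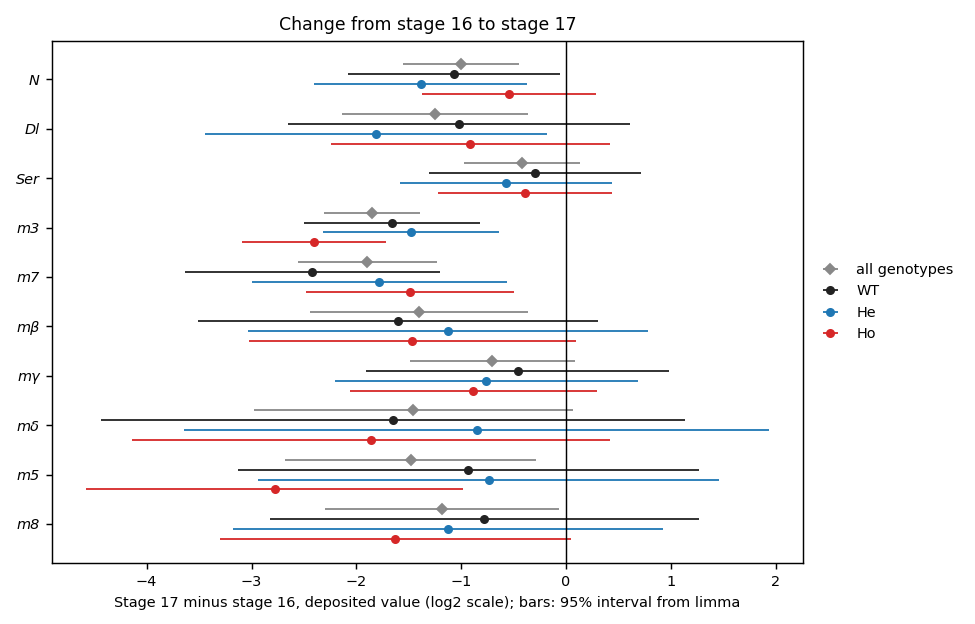
Change of each gene from stage 16 to stage 17 (horizontal axis, stage 17 minus stage 16 on the log2 scale) on average over the genotypes and in each genotype, with 95% intervals from limma. All points lie below 0, the intervals of *m3* and *m7* exclude 0 in every genotype, and those of *Ser*, *mγ*, *m8*, *mβ* and *mδ* include it in every genotype.

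Within single genotypes the counts of calls were low. In WT, 0 of 10 members were called by limma, where 0.596% of all genes fell, and 2 of 10 had an adjusted p under 0.05, *m7* and *m3*, where 2.74% fell at that threshold. In He, 0 of 10 were called, where 0.501% fell, and *m3* alone, 1 of 10, had an adjusted p under 0.05, where 2.23% fell. In Ho, 3 of 10 did, *m3*, *m5* and *m7*, where 8.49% fell. At an unadjusted p under 0.05 there were 3 members in WT, 4 in He and 3 in Ho, against 24.3%, 21.6% and 38.4% of all genes in either direction. The exact negative binomial test called 1 member in WT (*m7*), 2 in He (*m7* and *Dl*) and 1 in Ho (*m3*), against 2.86%, 3.56% and 3.89% of all genes that fell in that test. Stage 17 lay below stage 16 without overlap for 9 of 10 members in WT and 10 of 10 in He, where 28.4% and 29.9% of all genes did, and for 2 of 10 in Ho, where 13.5% did. The difference between the stage changes of Ho and WT was tested directly. It was not called for any member, with adjusted p-values of at least 0.984 in limma, where 0.0% of all genes were called, and 0 of 10 had an unadjusted p under 0.05, where 4.19% did. The intervals were wide: the change of *m7* was 0.93 higher in Ho than in WT (95% interval -0.64 to 2.5) and that of *m3* was 0.74 lower (a difference of -0.74, 95% interval -1.83 to 0.34).

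The transcripts of the 7 E(spl) bHLH genes together made up 88.7 to 107 CPM in WT16, 82.8 to 119 CPM in He16 and 75.4 to 120 CPM in Ho16. At stage 17 they made up 22.7 to 34.6 CPM in WT, 32.3 to 38.3 CPM in He and 16.3 to 41.3 CPM in Ho. The summed level therefore did not overlap between the stages. Within this sum, *mβ* took the largest share of the reads per kilobase in every library except Ho16c and Ho17a. In Ho16c its share was 10.7%, and *m3*, at 36.2%, took the largest. In Ho17a the share of *mγ* was 25.5% and that of *mδ* was 11.7%, against medians of 10.6% and 0.905% over the 7 stage 17 libraries. The share of *m7* was 11.3% to 25.6% at stage 16 and 9.38% to 16.8% at stage 17, with medians of 17.7% and 13.1%, while that of *m3* had medians of 24.7% and 23.9%.

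**Figure D3:**
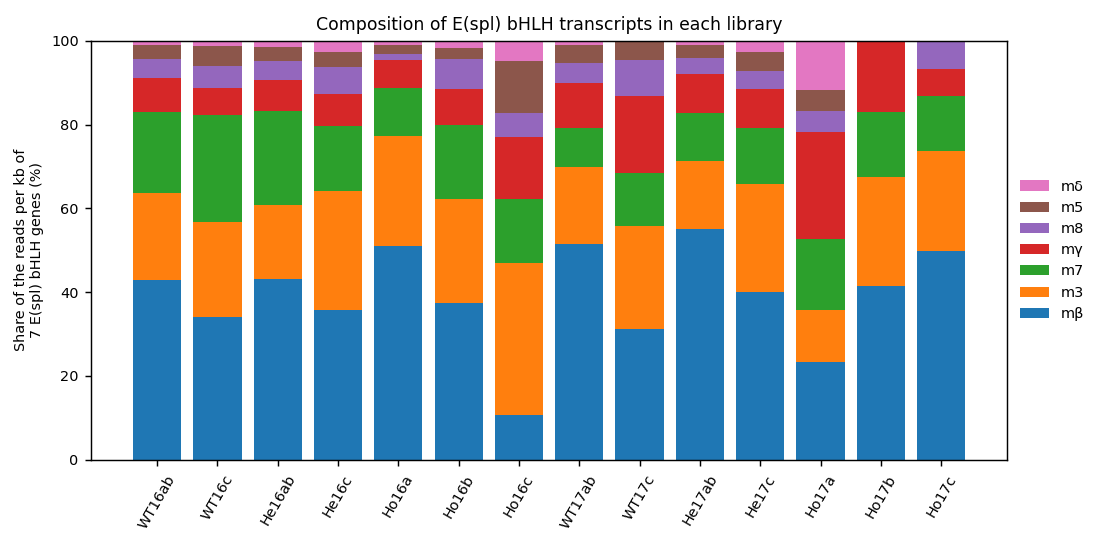
Share of each E(spl) bHLH gene (vertical axis, percent of the reads per kilobase of the 7 genes) in each of the 14 libraries (horizontal axis). *mβ* has the largest share in 12 libraries, and Ho16c and Ho17a differ from the others of their conditions.

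How alike the members were among themselves was described by Pearson's r over the 14 libraries, which share stages, experiments and depth. Over the 21 pairs of E(spl) bHLH genes r was between 0.27 and 0.84, with a median of 0.66. After the mean of each condition was removed, the median was 0.38 and the range -0.27 to 0.92, with *m5* and *mδ* at 0.92 and *m5* and *mγ* at 0.90. These high values lean on single libraries, since *m5*, *mδ* and *mγ* were each highest in Ho16c within Ho16 and in Ho17a within Ho17. For *m5* and *mδ*, Ho17b and Ho17c both had 0 reads, so their r also depends on the value given to 0 reads. *N* and *Dl* had r of 0.90 over the deposited values and of 0.82 after the condition means were removed, whereas *Dl* and *Ser* had 0.20 and -0.35. In WT and He, library c was above library ab in 4 of 4 conditions for *N* and in 2 of 4 for *Dl*.

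Of all other tested genes, those most like *N* were *Akap200* (r = 0.97), *robo2*, a receptor for the axon repellent Slit (r = 0.97), and *alt* (r = 0.96). Most like *Dl* were *Nup358*, a nucleoporin (r = 0.94), *pcs* (r = 0.92) and *hid*, an activator of cell death (r = 0.92). For *Ser* they were *rau* (r = 0.89), CG12551 (r = 0.89) and *Gr59e*, named as a gustatory receptor (r = 0.88). For the mean standardized values of the 7 E(spl) bHLH genes they were *jigr1* (r = 0.95), *mor*, a subunit of the Brahma chromatin remodelling complex (r = 0.94), and CG7173 (r = 0.93). None of these 12 genes is among the pathway genes listed here. All 12 had a fitted stage change below 0, which was largely set by choosing them for likeness to patterns that fell.

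The comparison of genotypes asked whether the loss of *salm* and *salr* was accompanied by other levels of the pathway. No member was called between any pair of genotypes at either stage, under any of the alternatives run, with 0 of 10 at an adjusted p under 0.05 in limma. Few genes at all were called in these comparisons, 1 of 11584 (0.00863%) for Ho against WT at each stage and for He against WT at stage 16, and 0 (0.0%) in the others. At an adjusted p under 0.05 they were 0.095% and 0.164% for Ho against WT at stages 16 and 17. The deleted genes themselves missed the threshold in limma, with adjusted p-values of 0.0513 and 0.0478 for *salm* at stages 16 and 17, although its log2 differences were -6.45 and -6.24, and the exact negative binomial test gave it adjusted p-values of 4.8e-19 and 8.2e-27. That test called 2.05% and 2.63% of all genes between Ho and WT at stages 16 and 17, and none of the members, whose lowest adjusted p was 0.206 for *mδ* at stage 17.

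**Figure D4:**
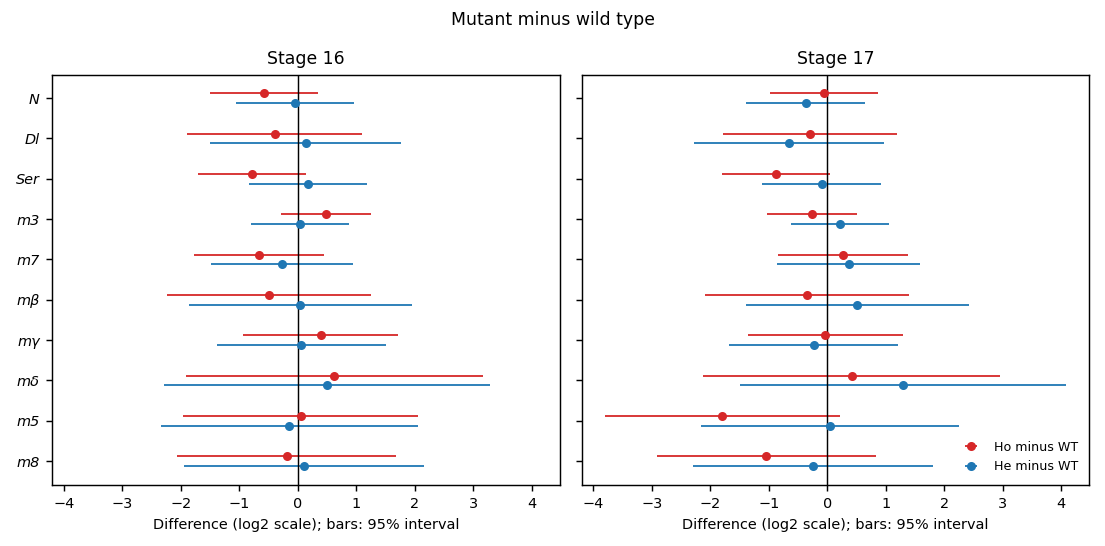
Difference of Ho and of He from WT for each gene (horizontal axis, log2 scale) at stage 16 and stage 17, with 95% intervals from limma. Every interval includes 0, and those of *mδ*, *m5* and *m8* are the widest.

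At stage 16, Ho lay below WT without overlap for *N*, *Ser* and *m7*, 3 of 10 members where 10.8% of all genes did, and above WT for *m3* and *mδ*, 2 of 10 where 8.5% did. The log2 differences of Ho from WT were -0.58 for *N* (95% interval -1.51 to 0.34), -0.78 for *Ser* (-1.70 to 0.14) and -0.67 for *m7* (-1.78 to 0.44). Without Ho16a the difference of *N* was -0.19. *m3* was 0.49 higher in Ho (-0.28 to 1.25). In CPM, Ho and WT overlapped for *N*, *m7*, *m3* and *mδ*, and of these 5 members *Ser* alone stayed apart. The difference of *Dl* was -0.40 (-1.89 to 1.09), and it was 0.19 without Ho16a. For *mβ* it was -0.49 (-2.23 to 1.25), and it was 0.46 without Ho16c. These data therefore leave room for a change of *Dl* and *mβ* of more than 2-fold in either direction.

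*Ser* was low in Ho relative to both other genotypes. At stage 16, all 3 Ho libraries were below all 4 libraries of WT and He, and its log2 difference from He was -0.96 (95% interval -1.88 to -0.03, unadjusted p = 0.0438, adjusted p = 0.710 from limma), the only one of the members with an unadjusted p under 0.05 between genotypes, where 6.47% of all genes had one. At stage 17 Ho17 was below He17 without overlap and overlapped WT17, with log2 differences of -0.78 from He and -0.87 from WT (95% interval -1.80 to 0.05, adjusted p = 0.629 from limma). The difference from WT at stage 17 was -0.38 without WT17ab and -1.37 without WT17c. None of these differences was called. At stage 16 *N* was likewise below all libraries of WT and He in Ho by the deposited values, and *m3* was above them. Against He alone, 1195 of 11584 tested genes were lower in Ho without overlap and 921 were higher. The share of all genes set apart from both genotypes was not counted.

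At stage 17, Ho lay below WT without overlap for 0 of 10 members and above WT for 0 of 10, where 15.8% and 13.4% of all genes did. Ho lay below He for *Ser*, *m3* and *mβ*, 3 of 10 where 14.2% of all genes did. The difference of *N* from WT was -0.06 (95% interval -0.98 to 0.87) and that of *m3* was -0.26 (-1.02 to 0.51), the narrowest intervals among the members together with that of *Ser*. The widest intervals were those of *mδ* (-2.13 to 2.96) and *m5* (-3.80 to 0.22). He differed from WT by between -0.28 and 0.50 on the log2 scale at stage 16 over the 10 members and by between -0.66 and 1.30 at stage 17, with an adjusted p of 1 for each in limma.

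The 3 Ho libraries of a stage differed among themselves by more than the genotypes did for several members. Ho16a had the lowest of the Ho16 values for 6 of 10 members, and Ho17b the lowest of the Ho17 values for 8 of 10. In this count Ho17b was tied with Ho17c at 0 reads for *m5* and *mδ*. Ho17a had the highest of the Ho17 values for 7 of 10, led by *mδ* at 92 reads against 0 and 0, *mγ* at 180 reads against 46 and 26, and *Dl* at 805 reads against 188 and 316. It was the lowest for *Ser*, at 292 reads against 368 and 565. *Tom*, a Bearded family gene, was likewise highest in Ho17a, with 621 reads against 26 and 109. In the WT17 and He17 libraries *mδ* had at most 19 reads. How often each Ho library was lowest or highest over all tested genes was not counted. Whether these orders are particular to the members is therefore not known.

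The other genes of the pathway were 42 genes in 7 groups, of which 40 were tested. Averaged over the genotypes 2 of these 40 fell and 3 rose at an adjusted p under 0.001 in limma, and 13 fell and 5 rose at 0.05, with a median log2 change of -0.74 against 0.01 over all genes. Of all tested genes 15.1% were called in either direction at 0.001 and 35.5% at 0.05. None of the 40 was called between genotypes, with a lowest adjusted p of 0.332.

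Among the genes that modify and cleave the receptor, *fng*, the glycosyltransferase that sets which ligand Notch responds to, fell from a median of 85.1 CPM at stage 16 to 15.9 CPM at stage 17, without overlap. On the log2 scale it fell by 2.58 (its standard error 0.21, adjusted p = 8.5e-07 from limma), more than the averaged value of any member. It was the only one called of 8 genes in its group, which had a median change of -0.89. *O-fut1*, which adds fucose to Notch, had a log2 change of -1.35 (adjusted p = 0.0201 from limma). The 4 genes of the γ-secretase complex that cuts Notch were divided, with log2 changes of -1.27 for *Psn*, -0.83 for *aph-1*, -0.75 for *nct* and 0.034 for *pen-2*, and adjusted p-values of 0.00291, 0.0397, 0.0981 and 0.977 from limma. *kuz*, the protease of the preceding cut, had a change of 0.21 (adjusted p = 0.627 from limma).

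In the group of trafficking and turnover genes the direction was divided. *Nedd4*, a ubiquitin ligase that promotes Notch degradation, rose from a median of 67.8 to 159 CPM, by 1.86 on the log2 scale (its standard error 0.24, adjusted p = 4.9e-05 from limma), and *Su(dx)*, a ligase of the same family, rose by 1.03 (adjusted p = 0.000839 from limma). Both did so without overlap between the stages, as 1629 of 11584 tested genes did. *Nedd4* and *Su(dx)* were the only calls among 5 genes. *spdo* and *dx* had changes of -1.22 and -1.0 and *numb* of 0.92, none of which passed 0.001.

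The Bearded family genes, small proteins that inhibit Neuralized and lie in part within the E(spl) complex, had a change below 0 for 8 of 8 tested genes, with a median of -1.17. *E(spl)m2-BFM* was the only call, with a median of 23.4 CPM at stage 16 and 4.32 CPM at stage 17, and it fell by 2.24 on the log2 scale (its standard error 0.35, adjusted p = 0.000236 from limma). *E(spl)m6-BFM* had a log2 change of -2.52 with an adjusted p of 0.00186 in limma and missed the threshold. In contrast, *h*, a Hes-type repressor best known from segmentation, rose from a median of 52.1 to 128 CPM (by 1.98 on the log2 scale, adjusted p = 0.000297 from limma), while the other 3 genes of that type had values between -0.85 and -0.73 and were not called.

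The other groups had no call. Among the genes that activate ligands by endocytosis, *neur*, the ubiquitin ligase of Delta, had a change of -1.60 (adjusted p = 0.00137 from limma), *lqf* of -0.85 and *shi* of 0.76. The nuclear partners had smaller values, with -0.50 for the antagonist *H*, -0.47 for *Su(H)* and 0.36 for *mam*, and a median of -0.25 over 5 genes. Of the proneural genes and their partners, which the E(spl) repressors act on, 6 of 8 were tested. *ase* had a change of -1.28 (adjusted p = 0.0160 from limma), *ato* of -1.26 and *sc* of -0.58, but *ato* had 27 and *sc* 61 reads in all 14 libraries together.

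**Figure D5:**
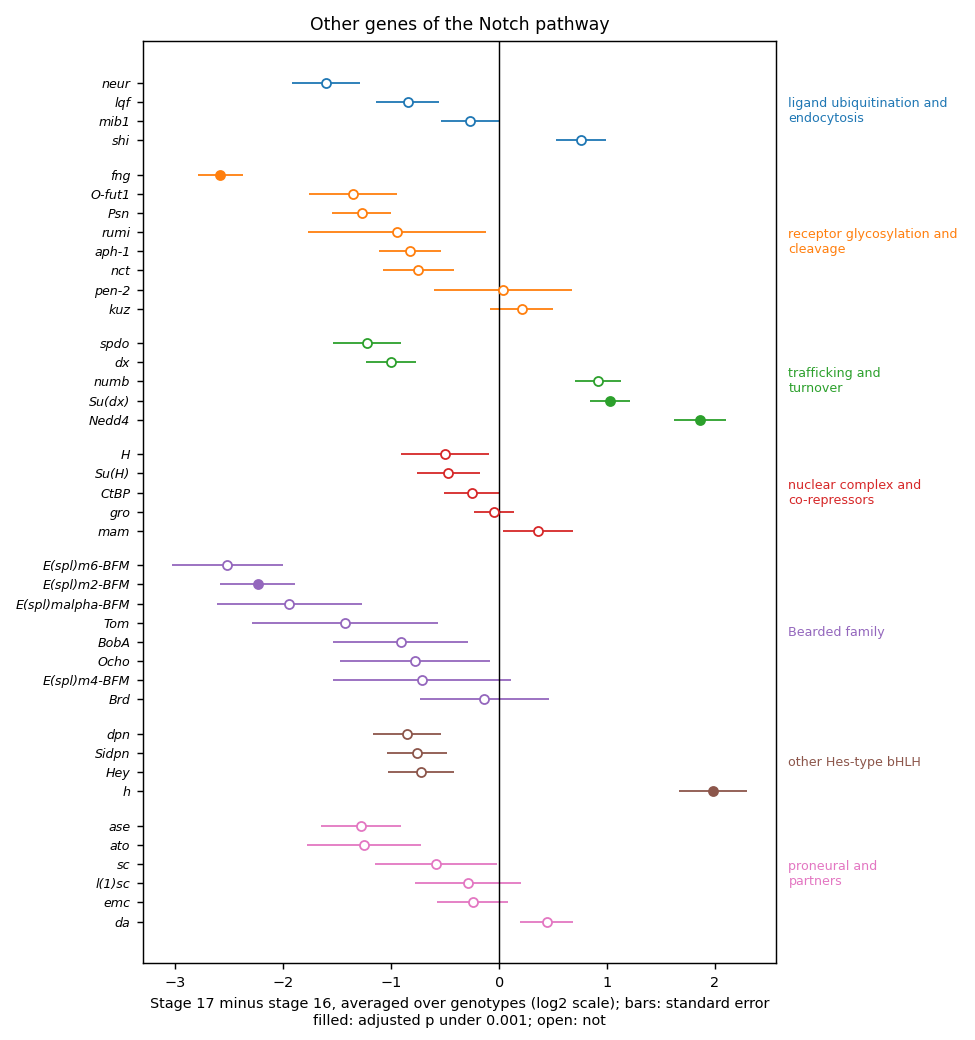
Stage change of 40 other pathway genes, stage 17 minus stage 16 averaged over the genotypes (horizontal axis, log2 scale, bars for the standard error), in 7 groups. Filled points mark the 5 genes called at an adjusted p under 0.001, of which *fng* and *E(spl)m2-BFM* fell and *Su(dx)*, *Nedd4* and *h* rose.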

How the data were processed

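The authors sequenced poly-A RNA, used Bowtie to align reads to FlyBase r5.22, Genominator to count them per gene and DESeq to normalize. The table they deposited holds variance-stabilized log2-like values, with -0.04 for 0 reads. Log2 differences of low genes are understated on this scale. Those of abundant genes such as *N* are overstated relative to reads scaled by the size factors. The stage change of *N* in WT was -1.07 on this scale and ranged from -1.18 to -0.81 over the alternatives. Counting is not stated to use strand. All libraries step along 1 curve, from which whole reads were recovered (99.93% of 158533 values within 0.05 of a whole read), and recovery was tested on simulated data. Reads of 1 amplified molecule are not independent, so floors cover counting error only.

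Deposited values were fitted with limma 3.58.1 in R 4.3.3, with 6 condition means, a variance trend (degrees of freedom: 8 residual, 4.58 prior) and Benjamini-Hochberg adjustment over 11584 genes. These had 15 reads or more over all libraries and, scaled to the median depth, 10 or more in 2 or more libraries. Calls needed an adjusted p under 0.001, after the study's methods. All tests were 2-sided and 11 comparisons were made. An exact negative binomial test, after the method of the authors' tool, was written with locfit 1.5.9.12 as an alternative. Summaries used Python 3.11.15, numpy 2.4.6, pandas 2.3.3 and scipy 1.17.1. Other alternatives were no filter, only the conditions compared, the experiment letter as a block, log2(CPM + 1), log2(CPM + 0.1), upper quartile scaling and thinning to 4749205 reads. An adjusted p of 0.05, each library left out, and Ho16a and Ho16c left out together were also run. Array weights were planned, but their results were left out.

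The members, gene lists and tests were chosen with earlier results of these data known. All members are named. Other pathway genes are named if called in the averaged stage change or between genotypes, and otherwise up to 3 per group with the largest stage change, and for each of *N*, *Dl*, *Ser* and the E(spl) mean the 3 genes with the highest r. *Tom*, *aph-1*, *nct*, *pen-2*, *kuz*, *spdo*, *dx*, *numb* and *E(spl)m6-BFM* were added after their values were seen. Symbols and exon lengths came from a Release 6 annotation, in which *lgd* was not matched. Sequences are not given here. No library was dropped or imputed in the main fit.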

Additional observations from a re-analysis of the deposited data

How the results depend on the processing

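The fitted change averaged over the genotypes was below 0 for every member under every alternative, *m3* was called in each of them, and 2 members were called under no filter, the replicate block, both CPM scales, upper quartile scaling, thinning and the removal of Ho16a and Ho16c together. With each library left out in turn, between 1 and 3 members were called on average over the genotypes, between 0 and 2 in Ho, and 0 in WT, in He, between genotypes and in the difference of Ho and WT stage changes. The count of 2 in Ho came without Ho17a, where *m5* is at 0 reads in both remaining Ho17 libraries and its value is set by the scale. Scaling moved the averaged changes of the genes with the fewest reads, between log2(CPM + 1) and upper quartile scaling from -1.10 to -1.81 for *m8*, from -1.18 to -2.26 for *m5* and from -0.79 to -2.34 for *mδ*. None of these was called, and over the scalings and thinning the lowest adjusted p from limma was 0.0146 for *m8*, 0.00591 for *m5* and 0.0591 for *mδ*. At an adjusted p under 0.05 the counts were 5 on average, 2 in WT, 1 in He and 3 in Ho. The exact negative binomial test called 1 in WT and 2 in He, and it was not run for the average. Fitted on the conditions compared alone, 0 were called in Ho, with *m3* at -2.40 and an adjusted p of 0.00913 from limma. Without Ho17b *m3* in Ho had an adjusted p of 0.00104. CPM moved the median of all genes by -0.17 in the averaged stage change.

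Small uncalled differences changed sign. *m5* in Ho against WT at stage 16 was -0.058 and -0.15 with CPM pseudocounts of 1 and 0.1, -0.0047 with upper quartile scaling, -0.029 when thinned and -0.27 without Ho16a and Ho16c, and *mβ* and *m8* were then 0.19 and 0.60. At stage 17, *N* was 0.012 when thinned and *mγ* 0.32 in the exact test. With 1 library left out, differences of Ho from WT at stage 16 ranged from -1.09 to 0.46 for *mβ*, -0.99 to 0.19 for *Dl*, -0.46 to 0.40 for *m5* and -0.58 to 0.25 for *m8*. At stage 17 they ranged from -1.14 to 0.43 for *mβ*, -0.96 to 0.25 for *Dl*, -0.30 to 0.25 for *N*, -1.08 to 1.5 for *mδ*, -0.69 to 0.44 for *mγ*, -0.11 to 0.51 for *m7* and -1.62 to 0.0054 for *m8*. The stage change of *Ser* in WT ranged from -0.79 to 0.19. The cause of these changes was not tested.

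The study gives the letters as different experiments of each genotype and does not say that libraries with the same letter were handled together across genotypes. Deviations of same-letter libraries from their condition means had r between 0.021 and 0.34, over 0.1 in 18 of 23 pairs. In WT and He the 2 libraries of a condition deviate by equal and opposite amounts. Each pair of ab libraries therefore repeats the r of a pair of c libraries, and the pairs are not all distinct. With the letter as a block, *m3* and *m7* had the same averaged changes of -1.85 and -1.90, with adjusted p-values of 2.5e-05 and 0.000264 from limma, and the block changed no call. The fit of array weights did not converge. It gave Ho16b a weight of 142, against 0.121 for Ho16a and 0.0722 for Ho16c, and no results with these weights are given.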
